A study of Mus musculus with 4 samples.

Results

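The striatal signalling genes described here are 9 genes, of 37311 on the arrays, that are best known from the medium spiny neurons of the striatum or, in this hippocampus series, were high beside such genes. They are Adora2a, Rgs9, Drd1, Drd2, Ppp1r1b, Gpr6, Ido1, Sh3rf2 and Serpina9, and 18 of the 56605 probes measured them. They were chosen because they were high on the array of 4-month-old Rp58 hetero-KO mice. Their difference from WT at that age is therefore a description and supports nothing, and the comparison of the genotypes at 18 months is the one that shares no array with the choice.

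RNA came from the hippocampus of WT mice and of mice with 1 knocked-out copy of Rp58, a transcriptional repressor now named Zbtb18. The groups were WT at 4 months, Rp58 hetero-KO at 4 months, WT at 18 months and Rp58 hetero-KO at 18 months; the descriptions of the older groups give 12 to 18 months. In each group 3 RNA samples were mixed and put on 1 array, so no group has a replicate, no difference below has a test, and the spread between mice is unknown. The knocked-out part of the gene, the strain and the sex of the mice are not given in the sources used here.

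Medium spiny neurons are the GABA-releasing output cells of the striatum, and they fall into a direct pathway that carries the dopamine D1 receptor and an indirect pathway that carries the dopamine D2 and adenosine A2A receptors. The D1 and A2A receptors raise cyclic AMP through the G protein Golf and adenylyl cyclase, and the D2 receptor lowers it. Ppp1r1b encodes DARPP-32, which becomes a protein phosphatase inhibitor when protein kinase A phosphorylates it, and Rgs9 shortens G protein signals downstream of the D2 receptor. Hippocampus holds few cells of this kind, although some of its neurons also express dopamine receptors and Ppp1r1b.

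Levels are the spot signal divided by the array's 75th percentile, and a difference is the log2 ratio of a pair of levels. The 75th percentile lay between 1714 and 2111 signal units, 77.9% to 81.9% of the spots were well above background, and 0 spots were saturated. All 18 probes of the 9 genes were well above background on all 4 arrays. The 12 hippocampus markers were also measured on every array of the scanner files, with a summed level of 57.0 to 72.9. Zbtb18 itself stood at −0.20 (hetero-KO minus WT, log2) at 4 months and 0.18 at 18 months; where its probe lies relative to the deletion is unknown, so it does not check the labels. The pools differed in sex genes. The Y-linked genes Eif2s3y, Uty and Ddx3y were well above background on every array except that of hetero-KO at 4 months, where Eif2s3y was at least 100-fold below WT of that age. Another Y-linked gene, Kdm5d, stood at 0.0845 to 0.120 on all 4. Xist, the RNA of the silenced X chromosome, read 0.164 on the WT and 0.231 on the hetero-KO array of 4 months, and neither 18-month array showed it above background. The 4-month hetero-KO array, which chose the genes, thus stands apart from the others in Y-linked RNA; the part of sex in the results below was not tested.

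Below are 4 of the 60-base probes, chosen because a reader needs them to see what the values measure. They belong to the D2 receptor and to the Gpr6 probe that stands for its gene. Next is the Ppp1r1b probe whose ends lie 1375 bases apart on the genome and so cross an intron. The last is the Rgs9 probe whose highest array was WT at 18 months. All are in lower case and in the direction of the transcript, from the deposited scanner files, with positions on mm9. They lie at chr9:49215047-49215106 (plus strand), chr10:40790325-40790384 (minus), chr11:98216810-98218184 (plus) and chr11:109121142-109121201 (minus). No gene annotation of that build was used here, so exon and UTR positions of the probes are not given.
Drd2 A_52_P529650: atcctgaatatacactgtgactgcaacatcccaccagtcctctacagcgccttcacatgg
Gpr6 A_55_P2166508: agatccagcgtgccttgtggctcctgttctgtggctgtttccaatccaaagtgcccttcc
Ppp1r1b A_52_P664867: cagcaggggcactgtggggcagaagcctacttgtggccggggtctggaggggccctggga
Rgs9 A_55_P1969027: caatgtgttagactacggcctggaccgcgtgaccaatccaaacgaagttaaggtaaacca

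All 9 genes had their highest level on the hetero-KO array of 4 months, and 17 of the 18 probes did. The genes were chosen for being high on that array, so these counts follow from the choice. The lowest level was that of hetero-KO at 18 months for 7 genes and of WT at 18 months for 2, Adora2a and Rgs9. In the order of levels, WT at 4 months came second for 8 genes; for Adora2a it was hetero-KO at 18 months. Summed over the 9 genes, the level at 4 months was 8.70 for WT and 17.5 for hetero-KO, against 7.60 and 6.55 at 18 months. In such bulk RNA, the number of cells of a type, the RNA per cell and the share of neighbouring tissue in a sample cannot be told apart.

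**Figure D1:**
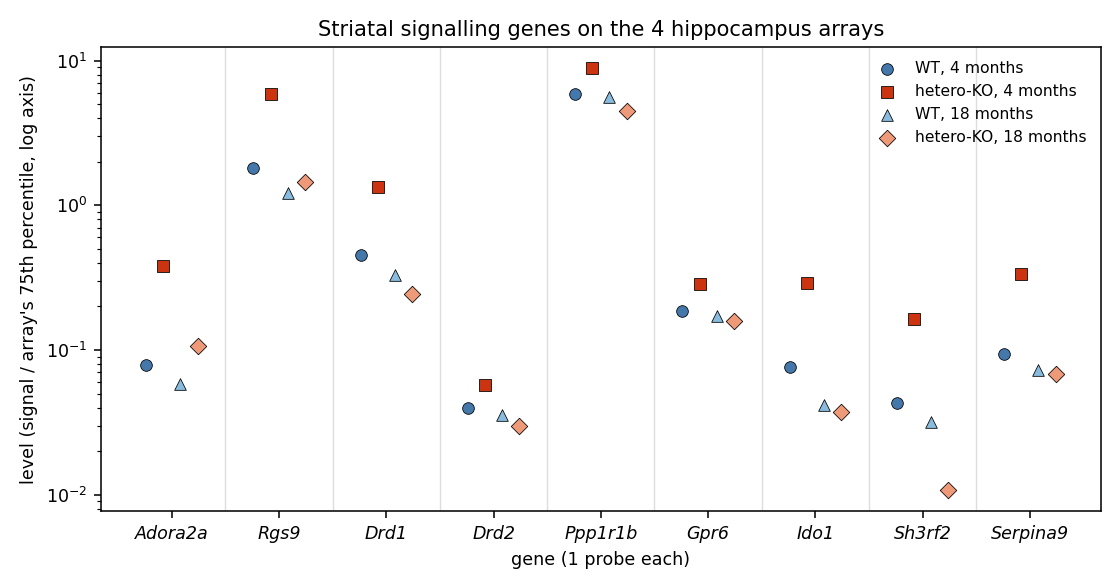
Level of each of the 9 genes (spot signal divided by the array's 75th percentile, log axis) on the 4 arrays, 1 point per array, with the probe that stands for the gene. For every gene the square of hetero-KO at 4 months is the highest point; for Sh3rf2 the diamond of hetero-KO at 18 months is far below the others, at 0.0107.

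Adora2a encodes the adenosine A2A receptor, the Gs-coupled receptor of the indirect pathway. The 4-month arrays read 0.0785 (WT) and 0.378 (hetero-KO), the 18-month arrays 0.0585 and 0.107. It was the member with the widest genotype difference at 4 months, 4.82-fold (log2 2.27, with a spot error of 0.20). At 18 months it was still 1.83-fold higher in hetero-KO (log2 0.87, spot error 0.21), so that both hetero-KO arrays lay above both WT arrays. Adora2a has 1 probe on the array.

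Drd1 encodes the dopamine D1 receptor of the direct pathway. At 4 months it was 0.453 on the WT and 1.33 on the hetero-KO array, at 18 months 0.329 and 0.242. At 4 months it was 2.94-fold higher in hetero-KO (log2 1.56), whereas at 18 months it was lower there (log2 −0.44, spot error 0.20). A second probe, 692 bases away, gave 1.48 at 4 months and −0.30 at 18 months.

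Drd2 encodes the dopamine D2 receptor of the indirect pathway, the partner of the A2A receptor in the same cells. It was low on every array, with 0.0396 (WT) and 0.0575 (hetero-KO) at 4 months against 0.0358 and 0.0297 at 18 months. It was 1.45-fold higher in hetero-KO at 4 months (log2 0.54, spot error 0.21) and lower by 1.21-fold at 18 months (log2 −0.27, spot error 0.24). On these probes the D2 receptor differed less at 4 months than the A2A receptor, which marks the same cells.

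Gpr6 encodes an orphan receptor of indirect pathway neurons that raises cyclic AMP without an added ligand. The 4-month arrays read 0.186 (WT) and 0.286 (hetero-KO), the 18-month arrays 0.171 and 0.158. On this probe it was 1.54-fold higher in hetero-KO at 4 months (log2 0.62) and within the spot error at 18 months (log2 −0.12, spot error 0.21). A second probe, which starts 209 bases away, had levels of 0.0983, 0.431, 0.0712 and 0.0465 in the same order, a 4.39-fold difference at 4 months and −0.61 on the log2 scale at 18 months. Both probes were highest in hetero-KO at 4 months and lowest in hetero-KO at 18 months, but the size of the Gpr6 difference depends on the probe.

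Among the regulators inside the cell, Rgs9 was the one with the larger difference. At 4 months it was 1.80 on the WT and 5.85 on the hetero-KO array, at 18 months 1.22 and 1.44. It was 3.25-fold higher in hetero-KO at 4 months (log2 1.70) and 1.18-fold higher at 18 months (log2 0.24, spot error 0.20). The 3 probes within 140 bases of each other near the 3′ end gave 1.67 to 1.70 at 4 months.

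The other 2 Rgs9 probes followed these in part or not at all. The probe A_66_P140185, which the array's design assigns to another transcript of the gene, 9713 bases upstream, read 0.0547 (WT) and 0.0594 (hetero-KO) at 4 months, then 0.0505 and 0.0404 at 18 months. Its 4-month difference of 0.12 was within the spot error of 0.21, and its 18-month difference was −0.32. The probe A_55_P1969027, 34473 bases upstream and printed above, is also assigned to a transcript other than that of the 3′ probes. It had levels of 0.0381, 0.0767, 0.102 and 0.0318 in the same order. It was 2.01-fold higher in hetero-KO at 4 months (log2 1.01), and at 18 months it was −1.68; it is the single probe of the 18 whose highest array was WT at 18 months. The Rgs9 difference at 4 months was thus read by the 3′ probes and to a lesser extent or not at all by the probes upstream. Since the upstream probes are assigned to other transcripts, position and transcript cannot be told apart here.

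Ppp1r1b read 5.93 (WT) and 8.84 (hetero-KO) at 4 months, then 5.64 and 4.46 at 18 months. It was 1.49-fold higher in hetero-KO at 4 months (log2 0.58, spot error 0.20) and lower at 18 months (log2 −0.34, spot error 0.20). The probe that crosses an intron gave nearly the same differences, 0.56 and −0.38. On the probes that stand for the genes, the 4-month difference of Ppp1r1b, Drd2 and Gpr6 lay between 0.54 and 0.62. On theirs, the other 6 genes lay between 1.56 and 2.27. This split depends on the probe: the second Gpr6 probe gave 2.13, the second Sh3rf2 probe 0.90 and the lowest Rgs9 probe 0.12.

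Ido1, Sh3rf2 and Serpina9 are not part of dopamine or adenosine signalling in the textbook sense. Ido1 encodes indoleamine 2,3-dioxygenase, an enzyme that opens the tryptophan ring in the first step of the kynurenine pathway. The 4-month arrays read 0.0760 (WT) and 0.292 (hetero-KO), the 18-month arrays 0.0418 and 0.0375. It was 3.85-fold higher in hetero-KO at 4 months (log2 1.94) and within the spot error at 18 months (log2 −0.16, spot error 0.22).

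Sh3rf2, a RING finger protein with SH3 domains, read 0.0430 (WT) and 0.164 (hetero-KO) at 4 months, then 0.0318 and 0.0107 at 18 months. It was 3.82-fold higher in hetero-KO at 4 months (log2 1.93) and 2.96-fold lower at 18 months (log2 −1.56, spot error 0.35). Its second probe, 2158 bases away, had levels of 0.0350, 0.0651, 0.0260 and 0.0223, which gives 0.90 at 4 months and −0.23 at 18 months, the latter within the spot error of 0.26. Both Sh3rf2 probes were highest and lowest on the same arrays, but the 18-month fold was read by 1 of them.

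Serpina9, a serine protease inhibitor of the serpin family known from germinal centre B cells, read 0.0944 (WT) and 0.337 (hetero-KO) at 4 months, then 0.0731 and 0.0682 at 18 months. It was 3.57-fold higher in hetero-KO at 4 months (log2 1.84) and within the spot error at 18 months (log2 −0.10, spot error 0.21). Its second probe, 321 bases away, gave 1.78 and −0.07.

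At 4 months, then, 9 of 9 genes were higher in hetero-KO, 6 of them at least 2-fold, with a median log2 difference of 1.70. Of all 28397 genes measured on both arrays, 0.69% were at least 2-fold higher, and the median of all genes was −0.02. Because this contrast chose the genes, nothing is read from that share.

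At 18 months, the comparison that shares no array with the choice, the group was not higher in hetero-KO. Of the 9 genes 2 were higher, Adora2a and Rgs9, and 7 lower, with a median log2 difference of −0.16 against −0.01 over all genes. Of all genes 47.9% were higher. The differences of 3 genes, Gpr6, Ido1 and Serpina9, were within the spot error. Only Sh3rf2 was at least 2-fold apart, and it was lower; of all 27615 genes measured on both arrays, 1.14% were at least 2-fold apart and 0.612% at least 2-fold lower. At 1.5-fold, 2 of the 9 were apart, against 4.75% of all genes. When a gene's probes were averaged, or with normexp background correction, 0 of the 9 were at least 2-fold apart at 18 months. Averaging also turned Rgs9 from 0.24 to −0.27, which left 1 gene higher and 8 lower, with a median of −0.27.

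**Figure D2:**
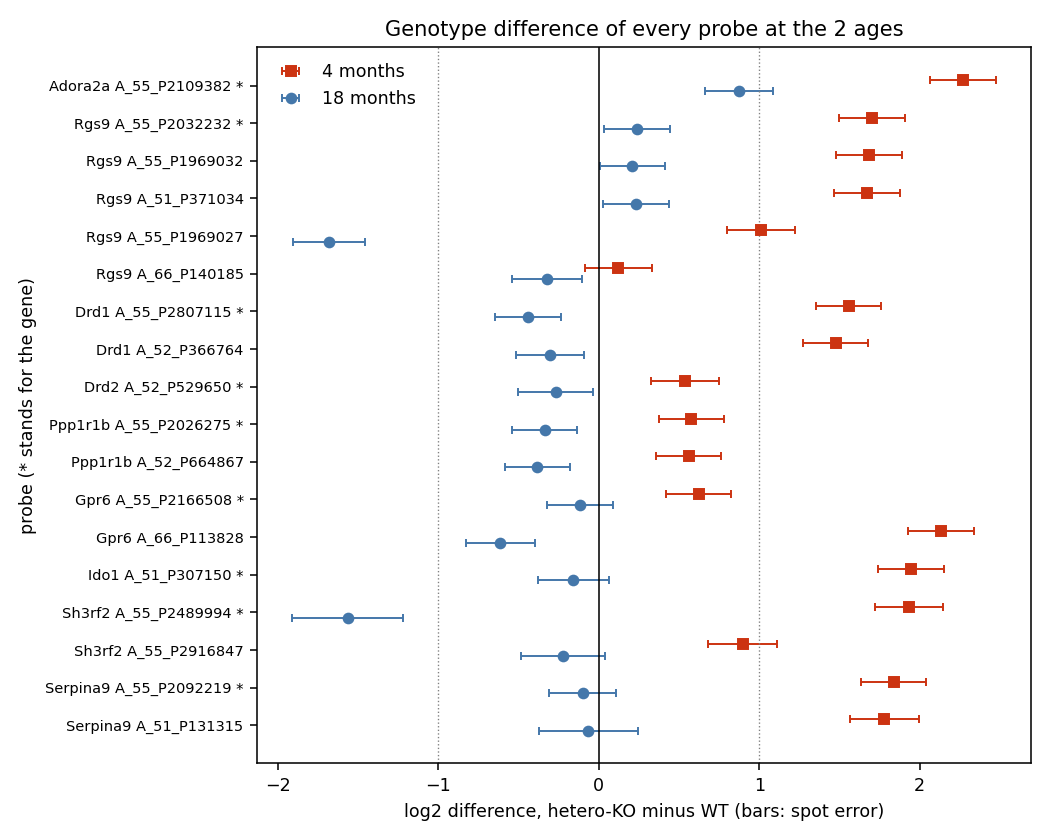
Log2 difference of hetero-KO minus WT at 4 months (squares) and 18 months (circles) for each of the 18 probes, with bars for the spot error that the scanner software gives over the pair of arrays; dotted lines mark 2-fold and an asterisk the probe that stands for the gene. All squares lie above 0, A_66_P140185 within its spot error, while the circles of 14 probes lie below 0.

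Between 4 and 18 months in WT, 9 of 9 genes were lower on the older array, with a median of −0.42 on the log2 scale against 0.04 over all genes. None reached 2-fold. Of all 28260 genes 1.6% were at least 2-fold apart, so a count of 0 among 9 is near that share. The widest was Ido1 at −0.86, the single member apart at 1.5-fold, where 5.27% of all genes were. The differences of 3 genes, Ppp1r1b (−0.07), Gpr6 (−0.12) and Drd2 (−0.15), were within the spot error. Of the 18 probes 1 was higher at 18 months, the Rgs9 probe A_55_P1969027, by 1.42 or 2.68-fold, and the Rgs9 difference was −0.56 on the probe that stands for the gene and −0.07 averaged over its probes. In hetero-KO, 9 of 9 were lower at 18 months and 6 at least 2-fold lower, with a median of −2.02, where 1.1% of all 27603 genes were at least 2-fold lower. On the probes that stand for the genes, Sh3rf2 was 15.3-fold, Ido1 7.80-fold, Drd1 5.50-fold, Serpina9 4.95-fold, Rgs9 4.06-fold and Adora2a 3.53-fold lower. The Sh3rf2 fold rests on a dim level of 0.0107 at 18 months. Its second probe was 2.93-fold lower, and normexp background gave −1.91 on the log2 scale. Gpr6 was 1.81-fold lower on the probe that stands for it and 9.27-fold lower on its second probe. The hetero-KO age difference contains the array on which the genes were chosen for being high, so its size is not independent of the choice, and the WT one shares its 4-month array with the contrast behind the choice.

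The age differences rest on which deposited values are used. In the authors' deposited table each value is a ratio to a 75th percentile. The columns for 4 months equal the scanner files within 1%, whereas those for 18 months correspond to no scanner file (the closest has a log2 correlation of 0.985). In the authors' deposited table, all 9 genes are lowest in WT at 4 months and all 9 are higher in WT at 18 months than in hetero-KO at 4 months. For Adora2a the authors' deposited table gives 0.0780 (WT) and 0.376 (hetero-KO) at 4 months, then 0.740 and 0.653 at 18 months. For Drd1 the authors' deposited table gives 0.450 and 1.32, then 2.71 and 1.83. For Ido1 the authors' deposited table gives 0.0755 and 0.291, then 0.510 and 0.308. By the authors' deposited table the WT age difference has a median of 2.05, with 6 genes at least 2-fold higher. Of all 28260 genes 987 are at least 2-fold higher there. The hetero-KO age difference in that table has a median of −0.13, with 3 genes higher and 6 lower. The 18-month genotype difference there has a median of −0.49 and is lower for 9 of 9 genes, Adora2a (−0.18) and Rgs9 (−0.48) included. The direction of the age difference in WT is therefore opposite in the 2 sources. No member was at least 2-fold higher in hetero-KO at 18 months in either. Of all 27615 genes 145 were in the scanner files and 132 in the authors' deposited table, so a count of 0 among 9 is near the share of all genes.

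The 18-month columns differ in tissue markers too. By the authors' deposited table, 9 of 12 hippocampus markers are at least 2-fold lower at 18 than at 4 months in WT (median −3.08). In hetero-KO 9 of 12 are (median −2.37), and all 11 choroid plexus markers are at least 2-fold lower in both. Of all genes in that table, 1509 of 28260 are at least 2-fold lower in WT and 1281 of 27603 in hetero-KO. In the scanner files 0 of the 12 hippocampus markers were at least 2-fold apart with age, with medians of 0.16 in WT and 0.26 in hetero-KO. Over all genes 1.6% (WT) and 2.2% (hetero-KO) were, so a count of 0 among 12 is near that share. The scanner files are used for all other results here.

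**Figure D3:**
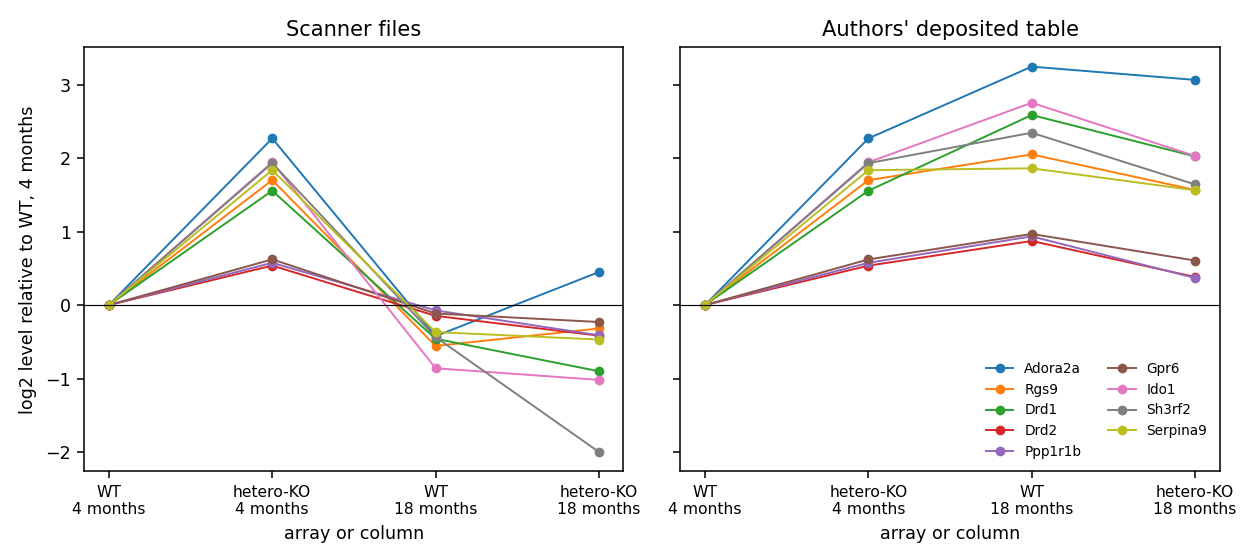
Log2 level of each of the 9 genes relative to WT at 4 months, on the 4 scanner arrays (left) and in the 4 columns of the authors' deposited table (right). The 4-month points are the same on both sides; at 18 months the lines lie near or below 0 on the left, Adora2a in hetero-KO excepted, and all above 0 on the right.

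Other genes of medium spiny neurons, a list of 36, were measured to see how far they went along. At 4 months 28 of the 36 were higher in hetero-KO and 8 lower, with a median of 0.45, and 6 were at least 2-fold higher. Over all genes 44.4% were higher, 0.69% at least 2-fold, and the median was −0.02. The list's median was 0.30 with the mean of probes and 0.34 with normexp background. The transporter family member Slc35d3 was higher by 1.67 (0.0951 to 0.303), the nuclear receptor Rxrg by 1.55 (0.398 to 1.16), the substance P precursor Tac1 by 1.54 (1.40 to 4.07), the enkephalin precursor Penk 2.83-fold (8.52 to 24.1), the cAMP-regulated phosphoprotein Arpp21 by 1.32 (2.03 to 5.07) and Syndig1l by 1.20 (0.455 to 1.05). Of the 5 Arpp21 probes measured on all arrays, 1 was 2-fold apart, and the lowest gave −0.07; of the 3 Tac1 probes 2 were, and of the 2 Syndig1l probes 1, the other at 0.94. This list was chosen with earlier results known and its contrast is the one behind the choice of the 9 genes.

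Genes of the direct and indirect pathway were both among those that were higher. The 10 direct pathway markers had a median of 0.49 at 4 months, 8 of them higher, with Pdyn, the dynorphin precursor, at 0.86. The 5 indirect pathway markers had a median of 0.05, with 3 higher; beside Penk, Gprin3 stood at 0.51, Six3 at 0.05, Gpr52 at −0.05 and the transcription factor Sp9 at −0.30. The 21 genes shared by both kinds of cell had a median of 0.47, 17 higher. Dclk3 and Lrrc10b, with 1 probe each, stood at −0.15 and −0.06, while the probes of Bcl11b gave −0.15 and 0.18 and those of Strip2 −0.12 and −0.59.

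At 18 months the medium spiny neuron genes showed no common direction. Of 33 measured on both arrays, 15 were higher and 18 lower in hetero-KO, with a median of −0.03 against −0.01 over all genes. The transcription factor Six3 was lower by 1.37 on the log2 scale (0.170 for WT, 0.0656 for hetero-KO). The transcription factor Isl1, not well above background in hetero-KO, was lower there by at least 4.10-fold. Penk, at 0.35, and Syndig1l, at 0.82, were higher. In hetero-KO 23 of the 33 were lower at 18 than at 4 months, 9 of them at least 2-fold (median −0.42; Six3 −2.68, Slc35d3 −2.50 and Rxrg −2.06), where 1.1% of all genes were at least 2-fold lower and the median of all genes was 0.04. This difference contains the array on which the 9 members were chosen. In WT 19 of 34 were higher and 15 lower (median 0.04), with Six3 at −1.26 and Ebf1 at −1.08. For these age differences the authors' deposited table gave medians of 0.72 (WT) and −0.05 (hetero-KO). Foxp2 was not well above background at 18 months and was at least 5.55-fold lower there in WT and 4.82-fold in hetero-KO, and Gpr52 at least 1.16-fold and 1.02-fold.

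The genes that carry the receptor signal on to cyclic AMP and the kinases differed by less than 2-fold between the genotypes. Of 22 genes for the G protein, cyclase, phosphodiesterases, kinases and phosphatases, 18 were higher in hetero-KO at 4 months with a median of 0.11. None of the 22 reached 2-fold. Over all genes 44.4% were higher, with a median of −0.02, and 0.69% were at least 2-fold higher. A count of 0 among 22 is near that share. The phosphodiesterase Pde10a had levels of 2.42 and 3.91 at 4 months (log2 0.69) and 2.02 and 1.80 at 18 months, the adenylyl cyclase Adcy5 2.13 and 3.42 (0.68) and 2.36 and 2.86, the phosphodiesterase Pde1b was higher by 0.43 and the Golf subunit Gnal by 0.36, although its second probe gave 0.02. The kinase subunit Prkaca gave 0.00 and 0.27 on its 2 probes. At 18 months the list had a median of 0.03, and Pde10a was the single gene of the list at least 2-fold apart with age, at −1.12 in hetero-KO. Over all genes 2.2% were at least 2-fold apart in that comparison, and a count of 1 among 22 is near that share. The comparison contains the array on which the members were chosen.

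Relatives of the members were read on the same arrays; since the members were chosen on the 4-month contrast and their relatives were not, the values are a description. Among the other dopamine and adenosine receptors and the relatives of Gpr6, 3 of 8 were higher in hetero-KO at 4 months and 5 lower (median −0.13). Drd5, the other D1-like receptor, stood at 0.28, Adora1 at 0.18, Drd3 at −0.16, Gpr3 at −0.13 and Gpr12 at −0.21. Drd4 was the one with a 2-fold difference. Its WT arrays read 0.0160 (4 months) and 0.0458 (18 months), its hetero-KO arrays 0.0118 and 0.0207. That is 1.51 for age in WT (spot error 0.24) and −1.15 for the 18-month genotype difference (spot error 0.25). Over all genes 1.6% and 1.14% were at least 2-fold apart in those comparisons. A count of 1 among 8 was not tested against those shares. The Drd4 levels were dim, and these spot errors were wider than the 0.20 of Adora1. The other R7 family regulators and the partners of Rgs9 had a median of −0.06 at 4 months, with Rgs7 at −0.30, Rgs6 at −0.43 and the G protein subunit Gnb5 at 0.27. Sh3rf1 and Sh3rf3 stood at 0.13 and 0.31.

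The other enzymes of tryptophan breakdown were not chosen as Ido1 was. Of these 11 enzymes, 9 were measured on both 4-month arrays, 3 higher and 6 lower (median −0.01). None of the 9 was at least 2-fold apart in any comparison. Over all genes 1.32% were for genotype at 4 months and 1.14% at 18 months, 1.6% for age in WT and 2.2% in hetero-KO. A count of 0 among 9 is near those shares. Ido2, the paralogue next in function, was higher in hetero-KO at both ages (0.61 and 0.64), and Tdo2, which opens the same ring, was lower at both (−0.41 and −0.46). Kmo, which acts further down the pathway, was also lower at both (−0.40 and −0.45). At 18 months Ido1 itself, at −0.16, was within its spot error.

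Markers of other cells and regions were read for the same arrays. The 3 genes of GABA synthesis and vesicle loading were higher in hetero-KO at 4 months (median 0.28; Slc32a1 0.37) and lower at 18 months (−0.12). Of 5 cholinergic markers 4 were higher at 4 months (median 0.31); Slc10a4 stood at 1.51 at 4 months and −1.04 at 18 months, Chat at 0.31 and 0.44, and with age Slc5a7 was lower by 2.18 in WT and 2.67 in hetero-KO and Slc18a3 by 1.42 and 1.75. Dopamine neuron markers had a median of 0.10 at 4 months, 3 of 6 higher.

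Several neighbouring tissues moved the other way at 4 months, and their part in the members' difference was not tested. The 11 choroid plexus markers were lower in hetero-KO at both ages (medians −0.44 and −0.82), all 9 meningeal markers at 4 months (−0.29; 0.41 at 18 months, 7 higher) and 8 of 9 thalamus and habenula markers at 4 months (−0.30). All 8 thalamus and habenula markers measured at both ages were at least 2-fold lower at 18 months in WT and in hetero-KO, with a median of −2.72 in both. Over all genes 0.824% were at least 2-fold lower in WT and 1.1% in hetero-KO. The summed level of these markers was 14.5 to 17.4 at 4 months and 2.97 to 2.99 at 18 months. Septum markers had medians of −0.41 and −0.70, neocortex markers −0.02 and −0.03, myelin genes −0.09 and 0.02, central amygdala markers −0.12 and 0.22, and hippocampus markers −0.22 and −0.01 at 4 and 18 months. Of 10 immediate early genes 9 were higher at 4 months (median 0.31) and 7 at 18 months (0.19). Of all genes 44.4% were higher in hetero-KO at 4 months and 47.9% at 18 months.

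**Figure D4:**
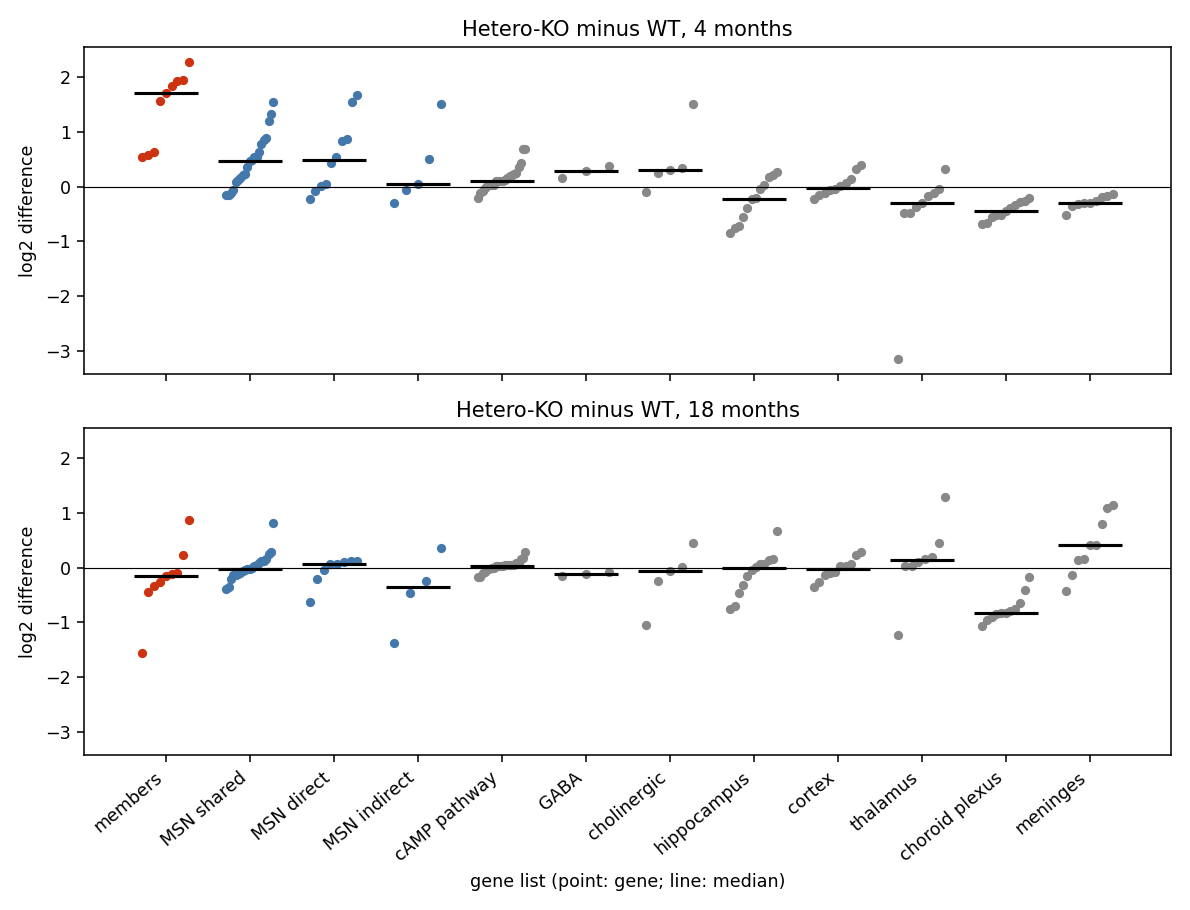
Log2 difference of hetero-KO minus WT for each measured gene (points) of 12 lists, with the list's median (lines), at 4 months (top) and 18 months (bottom). MSN stands for medium spiny neuron. The 9 members, drawn in red, were chosen on the 4-month contrast, where their median is 1.70; at 18 months it is −0.16.

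The 10 genes with the most similar pattern were found among 745 genes with an official symbol that were measured on all 4 arrays and spanned at least 1 log2 unit, by the root mean square distance of the centred log2 levels over the 4 arrays from the members' median pattern (−0.05, 1.51, −0.51 and −0.53). They were Rxrg (distance 0.11), Tac1 (0.14), Cdca3 (0.17), Ankk1 (0.18), Spem1 (0.20), St8sia2 (0.20), Gm34336 (0.22), Tex45 (0.24), Mccc1os (0.24) and Slc35d3 (0.25). Rxrg, Tac1 and Slc35d3 are on the medium spiny neuron list. Among the members the distance was 0.15 for Rgs9 and 0.16 for Serpina9 and up to 0.74 for Sh3rf2.

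Ankk1 is the protein-coding gene next to Drd2 on chromosome 9, and its probe lay 8.25 kb from that of Drd2. It read 0.0503 (WT) and 0.117 (hetero-KO) at 4 months, then 0.0364 and 0.0314 at 18 months, and so was 2.33-fold higher in hetero-KO at 4 months where Drd2 was 1.45-fold higher. St8sia2, a sialyltransferase of neural cell adhesion molecule, had levels of 0.0200, 0.0764, 0.0198 and 0.0171, and the cell cycle gene Cdca3 0.0396, 0.0974, 0.0284 and 0.0305. In all these, as in the members, the hetero-KO array of 4 months was the highest; patterns over 4 arrays with 1 high value are easily alike, and likeness here is a description of the arrays.

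**Figure D5:**
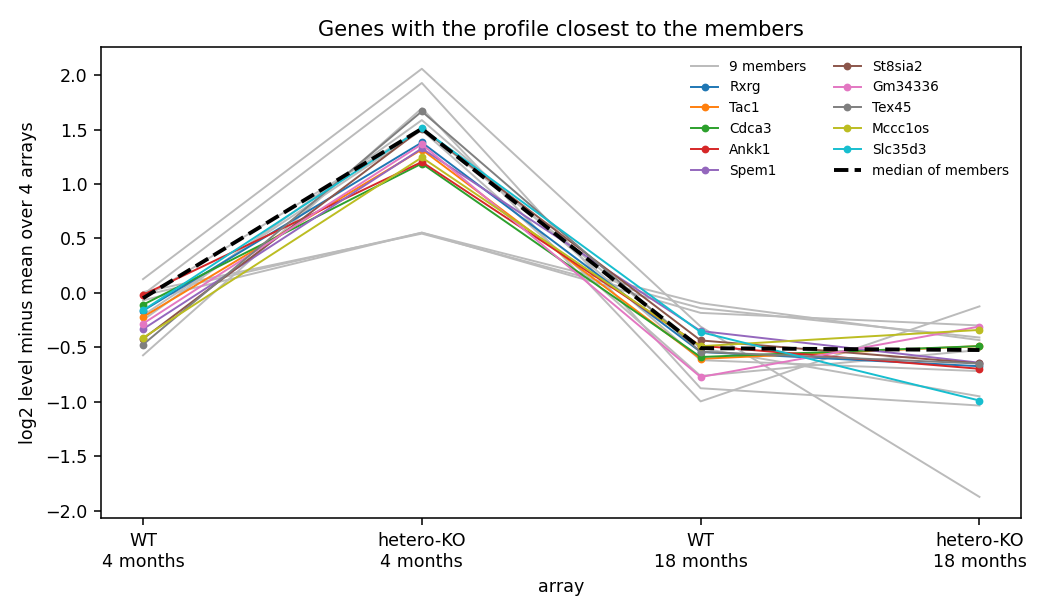
Log2 level minus its mean over the 4 arrays, for the 9 members (grey), their median (dashed) and the 10 genes with the smallest distance from that median (coloured). Every line peaks at hetero-KO, 4 months.

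The promoters of the members were read where RefSeq's promoter table (GRCm38.p6) held them, which was for 4 of the 9 genes, Drd1, Drd2, Gpr6 and Rgs9, in 5 windows of 300 bases (250 before to 50 after the start). The cAMP response element TGACGTCA, its own reverse complement, was in 1 of them, that of Gpr6, and in 1.79% of all 32851 windows. ACATCTG, the core of the motif bound by Zbtb18, or its reverse complement CAGATGT, was in 0 of the 5 and in 4.43% of all windows. The 250 bases before the Gpr6 start, at chr10:41072291-41072540 on the minus strand of GRCm38.p6, are shown with the cAMP response element in capitals; its first base lies 78 bases before the start.
Gpr6 promoter: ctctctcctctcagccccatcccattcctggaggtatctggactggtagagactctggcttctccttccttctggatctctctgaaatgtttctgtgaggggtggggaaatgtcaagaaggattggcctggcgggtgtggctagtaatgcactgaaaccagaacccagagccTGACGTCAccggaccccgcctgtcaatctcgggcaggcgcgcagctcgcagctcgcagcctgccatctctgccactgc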

How the data were processed

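Total RNA of mouse hippocampus, 200 ng of a mixture of 3 samples per group, was labelled with Cy3 and hybridised to 4 one-colour Agilent arrays, 1 per group, on 1 slide with 1 scan date. The deposited spot intensity values, on a linear scale, were made with Agilent Feature Extraction 11.5.1.1, per the file headers and the submitters' processing notes (background and spatial trend removed, not normalized between arrays; build mm9). The well-above-background marks and other marks used are also those deposited. The authors' deposited table holds a linear ratio to each array's 75th percentile; which arrays its 18-month columns come from is unknown.

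From the intensity values, log2 of the processed signal minus the array's 75th percentile (non-control spots without outlier marks) was taken. Spots of a probe were averaged, a probe was measured on an array if 50% or more of its spots passed the scanner software's background test, and the probe of highest mean level stood for its gene. RefSeq accessions (GRCm38.p6, names only) gave current symbols: 32994 of 56605 probes matched and 1535 symbols changed. With 1 array per group there is no test; a fold of 2 or more was counted, and 1.5 as an alternative. The spot error is the scanner software's error of both signals combined on the log2 scale; it covers neither mice nor pools. Where 1 side was not well above background, the fold is a lower bound: the bright level was divided by the dim level or, if higher, by the smallest level that passed the background test on the dim array. Alternatives were quantile normalization, normexp background (offset 50) with quantile normalization, median scaling, the mean of a gene's probes, no filter on dim probes and the authors' table; they kept the probe that stands for a gene, except the mean of probes. The 9 genes are named with every probe; of each list, members at least 2-fold apart in any comparison could be named and, for the medium spiny neuron and cyclic AMP lists, up to 4 with the largest 4-month difference, and then the 10 genes with the pattern nearest to the members. Other genes named were chosen after their values were seen. A gene of the medium spiny neuron list is not reported here and is left out of its counts. The members and the lists were chosen with earlier results of these data known. Python 3.11.15, pandas 2.3.3, numpy 2.4.6, R 4.3.3 and limma 3.58.1 were used.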

Additional observations from a re-analysis of the deposited data

Results flagged for a closer look

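For 7 of the 9 genes the genotype difference had opposite signs at the 2 ages, higher in hetero-KO at 4 months and lower at 18 months. The 9 genes were chosen for being high at 4 months, so this count only says that 7 were lower at 18 months. Over all genes 47.9% were higher in hetero-KO at 18 months. The 18-month minus the 4-month difference, on the log2 scale, was −3.50 for Sh3rf2, −2.10 for Ido1, −2.00 for Drd1, −1.94 for Serpina9, −0.91 for Ppp1r1b, −0.81 for Drd2 and −0.74 for Gpr6. These values are from the probes that stand for the genes. The second probe gave −1.12 for Sh3rf2 and −2.75 for Gpr6, so the order of the genes depends on the probe. With 1 array per group this difference was not tested. For Ido1, Gpr6 and Serpina9 the 18-month value was within the spot error. The 4-month values are those behind the choice of the genes.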

How the results depend on the processing

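Across the 9 genes and 4 comparisons, 216 values under 6 alternatives were set against those reported: 166 moved by less than the spot error, 47 moved further, among them all 9 age differences in WT in the authors' deposited table, whose sign changed, and 3 values past 2-fold reversed, all 3 in that table for the age difference in hetero-KO (Adora2a 0.80, Drd1 0.47 and Ido1 0.09). Quantile normalization, median scaling and no filter on dim probes moved none beyond the spot error. Part of this was fixed in advance. The members were well above background on every array, so dropping the filter could not move their 36 values. Median scaling shifts all genes of a comparison by the same amount. Genes with 1 probe under the mean of probes, and the 4-month genotype values of the authors' table, could hardly move either. All of these count among the 166. The number of members at least 2-fold apart at 18 months, 1 as reported, was 0 with the mean of probes, 0 with normexp background, 0 in the authors' table and 2 at 1.5-fold. For age in WT, 0 as reported, it was 1 at 1.5-fold and 6, all higher, in the authors' table; for age in hetero-KO, 6 as reported, it was 0 in that table. The median of the other medium spiny neuron genes for age moved to 0.72 in WT and −0.05 in hetero-KO in that table. Why the table differs was not tested. Of all genes at least 2-fold apart at 4 months, 52.1% were higher, 72.6% with normexp background, 60.8% with quantile normalization and 39.5% without the filter on dim probes; normexp called 69 genes higher and 26 lower, against 196 and 180. No paired analysis was possible because each group holds 1 array. The number of arrays, pools of mice that differ in sex genes, and dim probes such as those of Drd2 and Sh3rf2 limit what these values show.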
